A study of Mus musculus with 6 samples.

Results

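The 9 genes described here encode the D cyclins (Ccnd1, Ccnd2 and Ccnd3), the kinases CDK4, CDK6 and CDK2, and the transcription factors MYC, MYCN and MAX. They were taken by exact symbol from the 43283 genes of the deposited table, and each symbol matched 1 gene. Sequencing covered muscle stem cells of the mouse after 24 h in culture, 3 libraries with prostaglandin E2 (PGE2 1 to 3) and 3 with the solvent DMSO (Vehicle 1 to 3). All cells came from hindlimb muscle of female C57BL/6 mice, given as 8 to 12 weeks old in one place and 2 to 4 months in another. They were sorted as α7-integrin and CD34 positive and as CD45, Sca1, CD31 and CD11b negative, and both groups were kept in medium with 20% fetal bovine serum. Each library was made from 5000 to 10000 cells, while the PGE2 concentration and the animals behind each library are not stated in the labels. Each p-value below thus rests on differences between libraries that could be partly technical.

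D cyclins are made when growth factors reach a resting cell. They bind CDK4 or CDK6, and the complexes phosphorylate the retinoblastoma protein, which releases E2F factors and starts transcription of the genes for DNA replication. CDK2 acts next, with cyclins E and A. MYC binds DNA at the E-box as a dimer with MAX and activates genes of growth and of the cell cycle, Cdk4 among them. In muscle, stem cells rest in the G0 state and switch these genes on when they are activated, and cyclin D1 and MYC also oppose myogenic differentiation.

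The Cdk4 promoter is shown because it links the kinases to MYC: MYC with MAX binds the E-box, and Cdk4 is a known MYC target. The 250 bases before its RefSeq start (GRCm38.p6, chr10:127063285-127063534, plus strand) held 4 copies of the E-box CACGTG, in capitals, beginning 172, 118, 98 and 11 bases before the start:
Cdk4: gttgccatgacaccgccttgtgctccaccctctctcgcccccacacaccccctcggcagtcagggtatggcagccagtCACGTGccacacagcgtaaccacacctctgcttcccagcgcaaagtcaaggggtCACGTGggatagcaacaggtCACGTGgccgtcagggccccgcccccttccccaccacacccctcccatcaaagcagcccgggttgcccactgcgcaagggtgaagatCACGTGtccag
This motif reads the same on both strands, and each copy was counted once. Of 32851 RefSeq promoter windows of this length, 6.02% held at least 1 CACGTG and 0.0213% held 4 or more. Promoter windows were found for 6 of the 9 genes (7 windows: Ccnd3 has 2). Ccnd1, Ccnd2 and Myc had no window, so their promoters were not searched for any motif. Among the windows other than that of Cdk4, the Cdk6 window held 1 CACGTG and those of Cdk2, Ccnd3, Max and Mycn held 0. The cAMP response element TGACGTCA, the site of CREB, a factor that acts downstream of PGE2 receptors, was searched on both strands and was in 0 of the 7 windows, against 1.55% of all windows. Its half-site TGACG, which is also part of the full element, was in the windows of Cdk2, Cdk4, Cdk6 and Ccnd3, and in 17.8% of all windows. A motif match is a description of the sequence, not a binding site.

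All 9 genes were transcribed in both groups, and no difference between PGE2 and Vehicle passed the test for any of them. Values are in TPM, the abundance unit that corrects for transcript length and library size, so that levels can be compared between genes. Changes are log2 differences of TPM + 1, PGE2 minus Vehicle, from limma fitted over all 12781 genes with at least 1 TPM in 3 or more libraries, and p-values were Benjamini-Hochberg adjusted over those genes. All 9 genes passed that filter. At an adjusted p under 0.05, 0 of 9 passed, where the share of all tested genes was 0%, and each adjusted p was 1.00. Before adjustment 0 of 9 had a p under 0.05, against 3.63% of all tested genes (1.57% higher and 2.06% lower in PGE2), and their p ran from 0.216 to 0.835. The groups overlapped for each of the 9, while they did not overlap for 8.01% of all tested genes. The fitted values of 7 genes were lower and those of 2 higher in PGE2, with a median of -0.15. Over all tested genes 56.1% were lower, with a median of -0.07. Without PGE2 1, 4 of the 9 were lower, against 62.9% of all tested genes.

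In order of mean level over the 6 libraries, the genes ran Ccnd1, Myc, Max, Cdk6, Cdk4, Ccnd2, Ccnd3, Cdk2 and Mycn. Ccnd1 was the highest of the 9 and Mycn the lowest in 6 of 6 libraries. On the log2 scale of TPM + 1, Ccnd1 lay 2.35 ± 0.37 above Myc (SD, n = 6 libraries). Neighbours in the middle of the order were not separated beyond their spread: Myc was above Max in 3 of 6 libraries, Max above Cdk6 in 4 and Cdk6 above Cdk4 in 4. A gap followed, with Cdk4 above Ccnd2 in 6 of 6 libraries. Ccnd2 was above Ccnd3 in 3 and Ccnd3 above Cdk2 in 5, and Cdk2 exceeded Mycn in all 6.

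**Figure D1:**
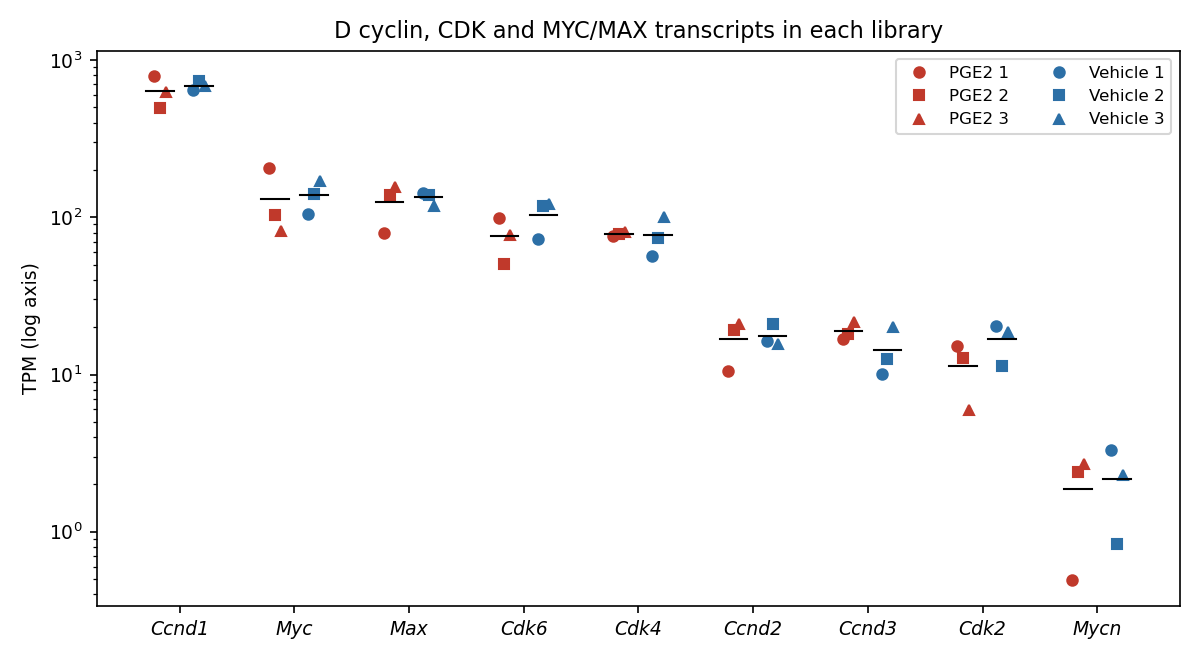
TPM of each gene on a log axis, with a point per library (PGE2 red and left, Vehicle blue and right; circle, square and triangle for replicates 1, 2 and 3) and a line at each group mean. Ccnd1 stands above all others at 498 to 792 TPM in PGE2 and 647 to 735 TPM in Vehicle, and the groups overlap for each gene.

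Among the D cyclins, Ccnd1 carried nearly the whole transcript pool. Ccnd1 (ENSMUSG00000070348, mm10 chromosome 7, 144929931 to 144939925, minus strand), the D cyclin most directly induced by mitogens, read 792, 498 and 628 TPM in PGE2 1 to 3, against 647, 735 and 683 TPM in Vehicle 1 to 3. The PGE2 libraries held both its highest and its lowest value, so the Vehicle libraries lay inside their range. Its mean was 639 ± 147 TPM in PGE2 and 688 ± 43.8 TPM in Vehicle (SD, n = 3 each), and its log2 change was -0.13 ± 0.30 (SE; limma adjusted p = 1.00). The 95% confidence interval ran from 0.574-fold to 1.46-fold. The sign turned without PGE2 2, to a log2 change of 0.04.

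Ccnd2 (ENSMUSG00000000184, chromosome 6, 127125162 to 127152193, minus strand), whose product also partners CDK4 and CDK6, read 10.5, 19.2 and 21.1 TPM in PGE2, against 16.4, 20.97 and 15.6 TPM in Vehicle. PGE2 1 was the lowest of the 6 and PGE2 3 the highest. The log2 change was -0.10 ± 0.41 (SE; limma adjusted p = 1.00), and it turned to 0.19 without PGE2 1 and to 0.02 without Vehicle 2. Ccnd3 (ENSMUSG00000034165, chromosome 17, 47505051 to 47599691, plus strand), the D cyclin most linked to differentiating muscle, read 16.9, 18.2 and 21.5 TPM in PGE2, against 10.1, 12.6 and 20.0 TPM in Vehicle. Its values in PGE2 all exceeded those of Vehicle 1 and Vehicle 2, and Vehicle 3 fell among them. With a log2 change of 0.43 ± 0.40 (SE; limma adjusted p = 1.00) it had the largest positive value of the 9, which was 0.22 without Vehicle 1 and 0.69 without Vehicle 3.

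Ccnd1 made up 96.7%, 93.0% and 93.7% of the summed D cyclin TPM in PGE2 1 to 3 and 96.1%, 95.6% and 95.03% in Vehicle 1 to 3. The difference of -1.14 percentage points had a two-sided exact permutation p of 0.4, where 3 against 3 libraries cannot go below 0.1. It was -2.25 without PGE2 1 and -0.42 without PGE2 2, and -0.74 without PGE2 3. The summed D cyclin level was 675 ± 142 TPM in PGE2 and 720 ± 47.1 TPM in Vehicle (SD, n = 3 each).

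**Figure D2:**
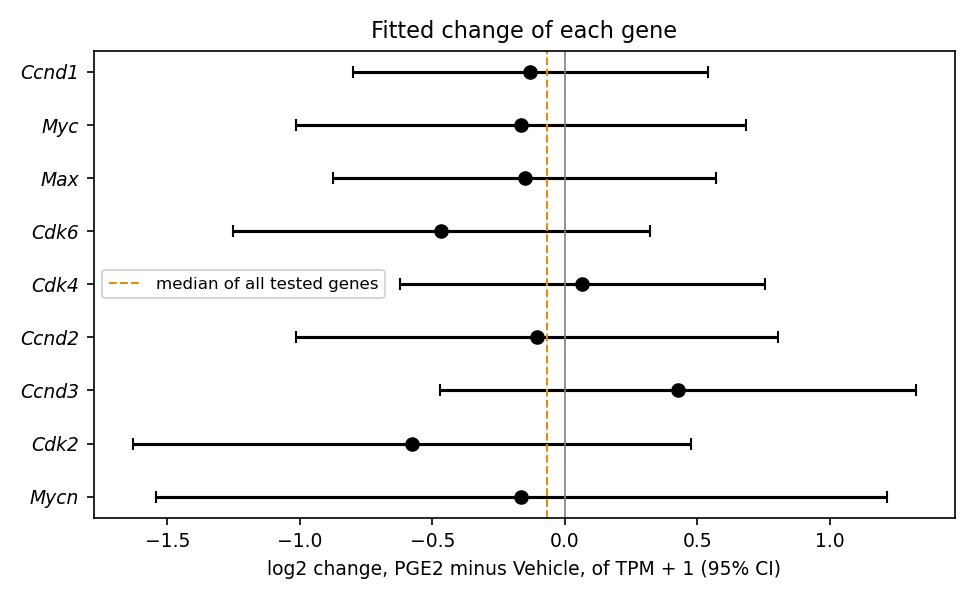
Log2 change of each gene, PGE2 minus Vehicle, with its 95% confidence interval from limma, and the median of all tested genes as a dashed line at -0.07. Values run between -0.58 for Cdk2 and 0.43 for Ccnd3, and each interval spans 0.

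CDK4 and CDK6, the kinases that D cyclins activate, were expressed at similar levels. Cdk4 (ENSMUSG00000006728, chromosome 10, 127063534 to 127067920, plus strand) read 75.9, 78.6 and 80.8 TPM in PGE2, against 56.5, 73.7 and 101 TPM in Vehicle. The 3 PGE2 values lay close together, inside the Vehicle range. The log2 values of Cdk4 had an SD of 0.05 in PGE2 and 0.41 in Vehicle, and its log2 change was 0.07 ± 0.31 (SE; limma adjusted p = 1.00), or -0.13 without Vehicle 1.

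Cdk6 (ENSMUSG00000040274, chromosome 5, 3341485 to 3531008, plus strand) read 99.3, 50.7 and 77.3 TPM in PGE2, against 72.6, 117 and 122 TPM in Vehicle. The highest 2 values were from Vehicle and the lowest from PGE2 2, with Vehicle 1 below PGE2 1 and PGE2 3. Its log2 change of -0.47 ± 0.35 (SE; limma adjusted p = 1.00) had the smallest unadjusted p of the 9 (0.216), and its confidence interval ran from 0.42-fold to 1.25-fold. The change was -0.21 without PGE2 2 and -0.70 without Vehicle 1.

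Cdk4 held 43.3%, 60.8% and 51.1% of the summed Cdk4 and Cdk6 TPM in PGE2, against 43.8%, 38.6% and 45.3% in Vehicle. PGE2 2 and PGE2 3 exceeded each Vehicle library, and PGE2 1 did not. The means were 51.8 ± 8.77% in PGE2 and 42.5 ± 3.53% in Vehicle (SD, n = 3 each; two-sided exact permutation p = 0.3). The difference of 9.22 percentage points was 4.69 without PGE2 2.

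Cdk2 (ENSMUSG00000025358, chromosome 10, 128697939 to 128705031, minus strand), the kinase of cyclins E and A, read 15.2, 12.8 and 5.95 TPM in PGE2, against 20.3, 11.3 and 18.6 TPM in Vehicle. PGE2 3 was the lowest library and Vehicle 2 the next. Its log2 change of -0.58 ± 0.47 (SE; limma adjusted p = 1.00) was the most negative of the 9 and became -0.21 without PGE2 3.

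Myc (ENSMUSG00000022346, chromosome 15, 61985391 to 61990374, plus strand) read 206, 103 and 82.3 TPM in PGE2, against 105, 140 and 169 TPM in Vehicle. PGE2 1 was the highest of the 6 libraries and PGE2 3 the lowest, a 2.51-fold range within the PGE2 group against 1.61-fold within Vehicle. The means were 131 ± 66.4 TPM in PGE2 and 138 ± 32.1 TPM in Vehicle (SD, n = 3 each). Its log2 change was -0.17 ± 0.38 (SE; limma adjusted p = 1.00), with a confidence interval from 0.494-fold to 1.61-fold, and it turned to 0.11 without PGE2 3.

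Max (ENSMUSG00000059436, chromosome 12, 76937269 to 76962201, minus strand), the partner that MYC needs to bind DNA, read 79.8, 139 and 155 TPM in PGE2, against 143, 139.5 and 118 TPM in Vehicle. Here PGE2 1 was the lowest and PGE2 3 the highest of the 6 libraries, the reverse of Myc. The log2 change of Max was -0.15 ± 0.32 (SE; limma adjusted p = 1.00) and turned to 0.14 without PGE2 1.

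The TPM ratio of Max to Myc was 0.387, 1.35 and 1.89 in PGE2 and 1.37, 0.997 and 0.700 in Vehicle. Each group thus had libraries with more Myc and libraries with more Max. On the log2 scale the Myc to Max ratio averaged 0.01 ± 1.20 in PGE2 and 0.02 ± 0.48 in Vehicle (SD, n = 3 each; two-sided exact permutation p = 1). Its difference, -0.01, turned to 0.20 without PGE2 2, 0.44 without PGE2 3 and 0.23 without Vehicle 3, and was -0.69 without PGE2 1 and -0.25 without Vehicle 1.

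Mycn (ENSMUSG00000037169, chromosome 12, 12936093 to 12941914, minus strand), the paralog of embryonic and neural tissues, read 0.49, 2.41 and 2.69 TPM in PGE2, against 3.33, 0.84 and 2.31 TPM in Vehicle. At this level its confidence interval, in folds of TPM + 1, was the widest of the 9, from 0.343-fold to 2.32-fold. The width depends on the value added: with TPM + 0.1 the SE of the Mycn log2 change was 1.02, against 0.62 with TPM + 1. Its log2 change of -0.16 ± 0.62 (SE; limma adjusted p = 1.00) turned to 0.25 without PGE2 1 and 0.11 without Vehicle 1. Myc accounted for 99.6%, 92.8% and 96.8% of the summed Myc, Mycn and Mycl TPM in PGE2 and 96.6%, 98.6% and 98.2% in Vehicle. The difference of -1.35 percentage points (two-sided exact permutation p = 0.7) was 0.44 without PGE2 2 and -2.94 without PGE2 1.

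The members varied in opposite directions among the PGE2 libraries. PGE2 1 was the highest of the 6 libraries for Ccnd1 and Myc and the lowest for Ccnd2, Max and Mycn. Within its own group PGE2 1 was the highest or the lowest library for 9 of 9 genes, against 73.2% of the 8370 tested genes that averaged at least 5 TPM. PGE2 3 was the highest of the 6 for Ccnd2, Ccnd3 and Max and the lowest for Myc and Cdk2. Among those 8370 genes, PGE2 1 was the highest of the 6 for 32.8% and the lowest for 14.6%. For PGE2 3 these shares were 9.59% and 27.0%. The log2 SD was larger in PGE2 than in Vehicle for 7 of the 9 genes, as it was for 69.5% of all tested genes; Cdk4 and Ccnd3 were the exceptions. Of the 36 pairs of members, Max and Ccnd2 kept the steadiest ratio, 7.63, 7.25 and 7.36 in PGE2 and 8.77, 6.65 and 7.58 in Vehicle. The SD of their log2 difference over the 6 libraries was 0.12, and the largest was 1.03, for Myc and Mycn. This pair was picked from the same values as the smallest of 36, so it is given as a description only.

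**Figure D3:**
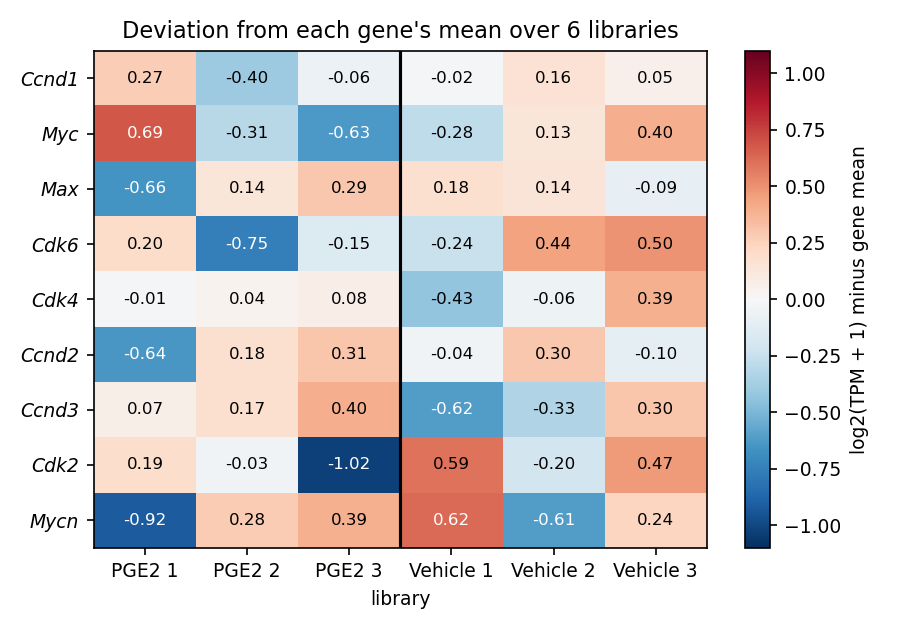
Deviation of log2(TPM + 1) in each library (columns, PGE2 left of Vehicle) from the gene's own mean over the 6 libraries (rows, by level), with red above and blue below the mean. In PGE2 1, Myc stands at 0.69 and Max at -0.66, while Cdk4 stays between -0.01 and 0.08 in the 3 PGE2 libraries.

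The promoter sequence above sets Cdk4 beside Myc, and their TPM can be read library by library. The ratio of Cdk4 to Myc was 0.368, 0.763 and 0.983 in PGE2 and 0.539, 0.526 and 0.595 in Vehicle. In the Vehicle libraries both genes were lowest in Vehicle 1 and highest in Vehicle 3. This order was not particular to Cdk4 and Myc. Ccnd3 (10.1, 12.6 and 20.0 TPM) and Cdk6 (72.6, 117 and 122 TPM) shared it, and the other members did not. Whether Cdk4 follows Myc was not tested. In the PGE2 libraries Myc spanned a 2.51-fold range while Cdk4 spanned 1.07-fold.

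The nearest profiles were sought among 7383 other protein-coding genes that averaged at least 5 TPM, by the root mean square difference of log2(TPM + 1) over the 6 libraries after centring each gene. For Ccnd1 they were Fam160a2 (0.06), Ckap2l (0.07) and Tpm1 (0.07), where the median gene lay 0.46 away. For Cdk4 they were Aplp2 (0.05), Ddx19a (0.07) and Surf4 (0.08), against a median of 0.53. For Myc they were Vac14 (0.06), Snx27 (0.08) and Prdx6 (0.08), against a median of 0.55. These distances rest on 6 libraries and are given as a description.

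In the lists of genes that act with the D cyclins, CDKs and MYC, no gene passed limma's adjusted threshold, and 1 had an unadjusted p under 0.05, where 3.63% of all tested genes did. CDK inhibitors and pocket proteins had the lowest median log2 change, -0.60, with 7 of 8 tested members lower in PGE2. PGE2 1 was the lowest of the 6 libraries for 4 of the 8, against 14.6% of tested genes that averaged at least 5 TPM. Vehicle 1 was the highest for 4, against 15.3% of those genes. Each of these counts includes Cdkn2a, which averaged only 2.10 TPM and read 0 in PGE2 1 and also in Vehicle 3, a tie for the lowest. Without PGE2 1, 7 of 8 were lower with a median of -0.45, while 62.9% of all tested genes were lower with a median of -0.18. Their groups did not overlap for 2 of the 8, both lower, where 4.84% of all tested genes were lower without overlap. Those were Cdkn2c, an inhibitor of CDK4 and CDK6, at 7.35, 12.6 and 12.8 TPM in PGE2 against 28.3, 20.2 and 14.97 TPM in Vehicle, and Rb1, the substrate of CDK4 and CDK6, at 19.9, 22.4 and 19.7 TPM in PGE2 against 31.6, 48.5 and 29.5 TPM in Vehicle. Neither passed (limma adjusted p = 1.00). Cdkn1a, which encodes p21 and was the most abundant of the list, read 61.9, 119 and 222.5 TPM in PGE2 against 142, 249 and 289 TPM in Vehicle.

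The D cyclins were next set against the CDK inhibitors whose symbols begin with Cdkn, each summed in TPM. Cdkn1a made up most of the inhibitor sum in each library, from 142 of 224 TPM in Vehicle 1 to 289 of 356 TPM in Vehicle 3. With Ccnd1 as most of the D cyclin sum, the measure mainly sets Ccnd1 against Cdkn1a. The log2 ratio of the sums was 3.21, 1.65 and 1.24 in PGE2 1 to 3 and 1.59, 1.29 and 1.01 in Vehicle 1 to 3. PGE2 1 stood above the other 5, which overlapped. The difference between groups was 0.74 (two-sided exact permutation p = 0.3) and 0.15 without PGE2 1, the library in which the inhibitors summed to 87.8 TPM, against 170 and 284 TPM in the other PGE2 libraries and 224 to 356 TPM in Vehicle. It was 1.13 without PGE2 3.

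**Figure D4:**
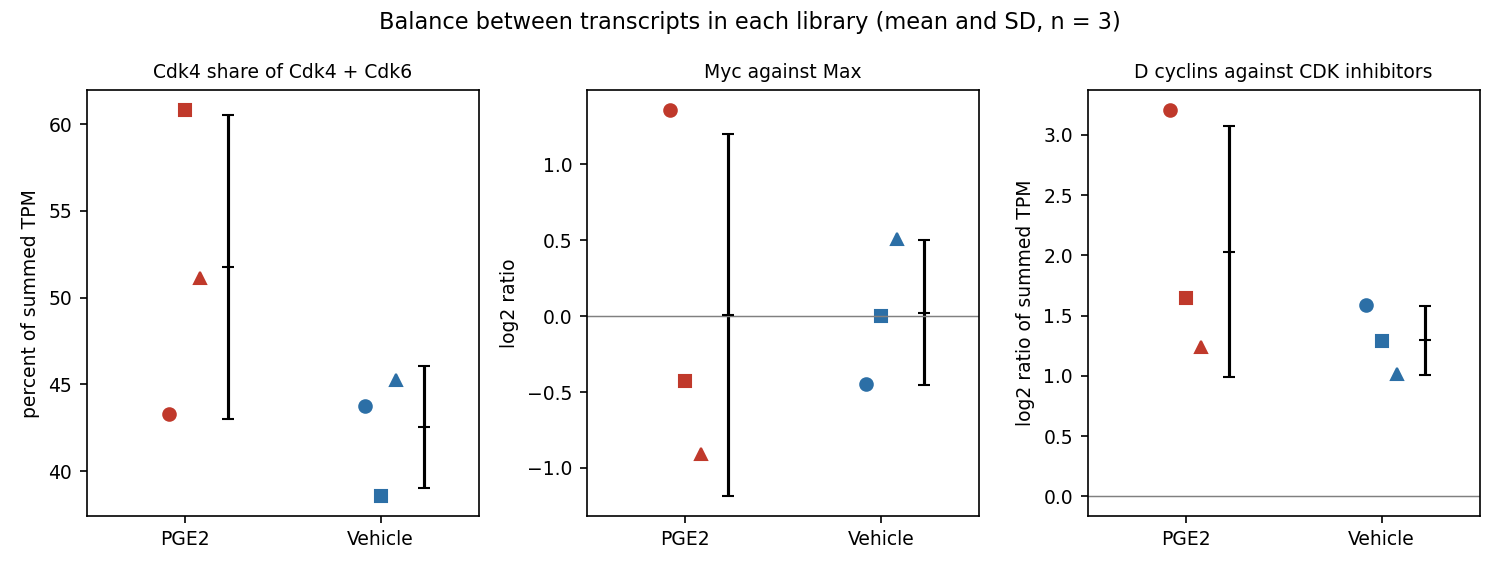
Per-library balance of transcripts, PGE2 left of Vehicle: the Cdk4 share of summed Cdk4 and Cdk6 TPM (%), the log2 ratio of Myc to Max, and the log2 ratio of summed D cyclins to summed CDK inhibitors. Symbols are replicates 1 (circle), 2 (square) and 3 (triangle) and bars are mean ± SD (n = 3); the PGE2 spread is the wider in each panel, and PGE2 1 stands at 3.21 in the third.

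Downstream partners of the D cyclins, the E and A cyclins, E2F factors and their activators, had 10 of 20 tested members lower and a median log2 change of -0.01. Skp2, which targets the inhibitor p27 for destruction, read 53.7, 22.5 and 29.1 TPM in PGE2 against 48.0, 57.2 and 46.5 TPM in Vehicle. Cdk1, the kinase of mitosis, was lower in each PGE2 library, at 55.5, 53.3 and 35.8 TPM against 65.1, 64.6 and 62.3 TPM in Vehicle, and did not pass (log2 change -0.43 ± 0.31, SE; limma adjusted p = 1.00). It was the only one of the 20 whose groups did not overlap, a share of 5% against 8.01% of all tested genes. E2f5, a repressive E2F, read 12.1, 8.44 and 16.0 TPM in PGE2 against 13.8, 5.52 and 3.38 TPM in Vehicle. Ccna2, which encodes cyclin A2 and was the most abundant, read 272, 181 and 263 TPM in PGE2 against 294, 220.5 and 267 TPM in Vehicle.

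Of the E2F target genes of S phase, 16 of 18 had lower fitted values in PGE2, against 56.1% of all tested genes, with a median of -0.18. Groups did not overlap for 0 of the 18, against 8.01% of all tested genes. Here too PGE2 1 differed from the other PGE2 libraries: it was the highest of the 6 libraries for 10 of the 18 genes (55.6%), against 32.8% of tested genes that averaged at least 5 TPM. The count of lower genes was 9 of 18 without PGE2 2, 10 without PGE2 3 and 17 without PGE2 1. The share of lower genes among all tested genes moved the same way, to 52.9% without PGE2 2, 49.7% without PGE2 3 and 62.9% without PGE2 1. Rrm2, a subunit of ribonucleotide reductase and the most abundant, read 690, 501 and 438 TPM in PGE2 against 556, 593 and 577 TPM in Vehicle. The replicative helicase genes Mcm3 and Mcm4 were not highest in PGE2 1: Mcm3 read 224, 425 and 196 TPM in PGE2 against 696, 370 and 242 TPM in Vehicle, and Mcm4 read 150, 195 and 134 TPM in PGE2 against 275, 204 and 129 TPM in Vehicle. Gins2, of the same helicase, read 27.1, 24.3 and 26.4 TPM in PGE2 against 34.9, 24.7 and 41.6 TPM in Vehicle.

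Around MYC, 3 of 7 tested genes of the MAX network were lower, with a median of 0.03. Mga, a large MAX partner that represses transcription, was the most abundant at 99.0, 78.0 and 70.1 TPM in PGE2 against 85.2, 80.0 and 74.9 TPM in Vehicle. Mnt, the MAX partner that antagonises MYC, read 3.38, 11.8 and 7.77 TPM in PGE2 against 6.55, 8.98 and 7.52 TPM in Vehicle. Mlx read 4.78, 7.97 and 3.83 TPM in PGE2 against 3.16, 9.38 and 3.41 TPM in Vehicle. Its partner Mlxip read 7.32, 6.92 and 4.04 TPM in PGE2 against 4.47, 4.59 and 7.10 TPM in Vehicle. Below 5 TPM on average, Mxi1 was the only one of the 7 whose groups did not overlap, at 4.18, 4.45 and 2.36 TPM in PGE2 against 2.16, 2.34 and 0.86 TPM in Vehicle, where 3.18% of all tested genes were higher without overlap; it was named after its values were seen.

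Of the genes that control the turnover of D cyclins and MYC, 6 of 11 were lower, with a median of -0.06. Gsk3b, a kinase that marks cyclin D1 and MYC for destruction, read 63.5, 26.9 and 40.3 TPM in PGE2 against 52.6, 59.2 and 67.8 TPM in Vehicle. The ubiquitin ligase gene Huwe1 read 784, 967 and 981 TPM in PGE2 against 1345, 1324 and 832 TPM in Vehicle.

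MYC target genes had 16 of 27 tested members lower and a median of -0.04. Odc1, the first enzyme of polyamine synthesis, read 2743, 1603 and 1050 TPM in PGE2 against 997, 1105 and 456 TPM in Vehicle. PGE2 1 and PGE2 2 exceeded each Vehicle library, and PGE2 3 lay below Vehicle 2. No other gene of these lists had an unadjusted p under 0.05, and Odc1 did not pass after adjustment (log2 change 1.07, SE 0.46, limma unadjusted p = 0.0438, adjusted p = 1.00). Its near-identical copies in the table summed to 203, 95.9 and 64.7 TPM in PGE2 and 15.1, 29.9 and 23.1 TPM in Vehicle. How reads were shared with them was not tested. Without PGE2 1 or without Vehicle 3, 0 of the 27 MYC target genes had an unadjusted p under 0.05. Srm, the next enzyme of that pathway, read 46.9, 16.8 and 40.1 TPM in PGE2 against 32.2, 55.6 and 68.7 TPM in Vehicle. Fbl, a ribosomal RNA methyltransferase gene, read 18.1, 52.3 and 26.8 TPM in PGE2 against 54.0, 36.6 and 37.1 TPM in Vehicle. The nucleolar gene Npm1 read 7818, 17544 and 14321 TPM in PGE2 against 18595, 15488 and 13984 TPM in Vehicle, and its near-identical copies summed to more than that in each library.

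**Figure D5:**
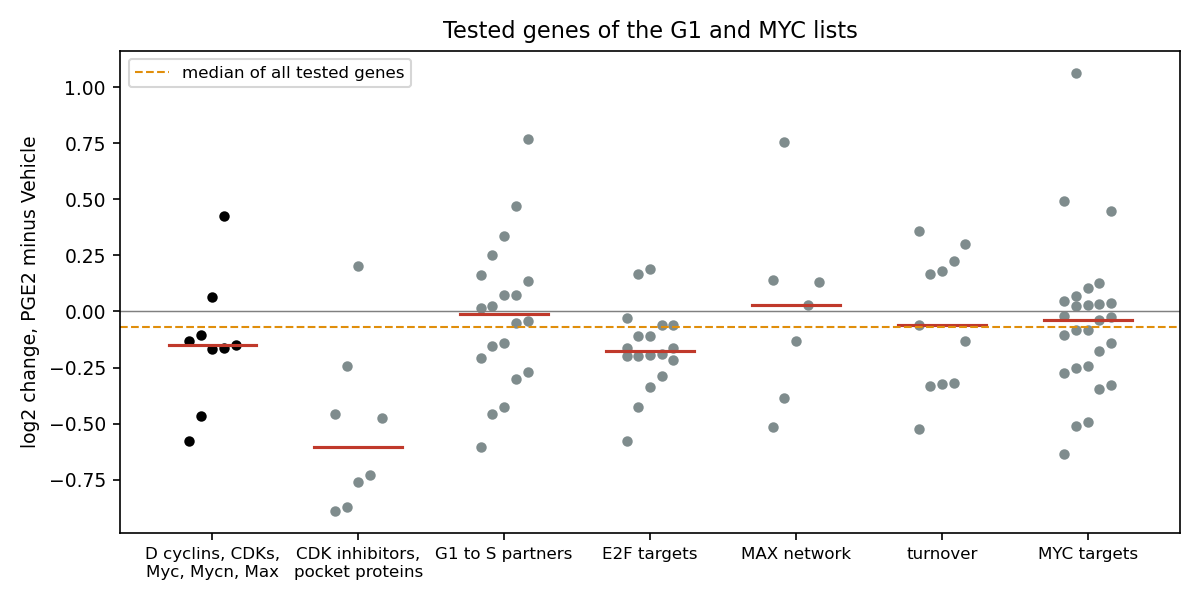
Log2 change, PGE2 minus Vehicle, of each tested gene (points) of the 9 genes and of 6 lists, with the list median in red and the median of all tested genes (-0.07) dashed. CDK inhibitors and pocket proteins have the lowest median (-0.60), and Odc1 is the highest point, at 1.07; 0 of these genes passed limma's adjusted threshold.

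Overlapping genes could share reads with 7 of the 9 members in the GENCODE M21 annotation. The counting strand is not stated in the labels, so reads from a gene and its antisense partner cannot be told apart. Oraov1 overlaps Ccnd1 on the other strand by 1771 bases and stayed between 0.73 and 11.9 TPM, and Tspan31 overlaps Cdk4 by 641 bases with 1.64 to 19.8 TPM. Bysl, which overlaps Ccnd3 by 361 bases, read 4.44 to 19.3 TPM, where Ccnd3 read 10.1 to 21.5 TPM. A search at 95% identity over 300 bases or more found the pseudogene Ccnd3-ps, listed at 0 in the 6 libraries, and otherwise only such overlaps.

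The libraries listed 15400 to 17710 genes above 0 in PGE2 and 16446 to 19677 in Vehicle, and read depth is unknown because TPM does not keep it. Mitochondrial genes took 23.0% to 30.4% of the TPM in PGE2 and 20.9% to 33.6% in Vehicle. Pearson's r across genes was 0.807 to 0.846 between PGE2 libraries and 0.886 to 0.926 between Vehicle libraries. Between a PGE2 and a Vehicle library it was 0.833 to 0.897, so PGE2 libraries were no more alike than libraries of different groups. All 12 muscle stem cell and myoblast markers were tested, and their summed level was 1032 to 1291 TPM in PGE2 and 1134 to 1395 TPM in Vehicle. Leukocyte markers (3 of 9 tested) summed to 8.25 to 14.1 TPM in PGE2 and 3.58 to 11.9 TPM in Vehicle, and endothelial markers (3 of 7 tested, Cldn5 listed at 0 throughout) to 6.90 to 19.9 TPM in PGE2 and 4.16 to 7.42 TPM in Vehicle. Emcn, not tested, read 15.3 TPM in PGE2 3 and 0.15 to 0.87 TPM in the other libraries. Eng was higher in PGE2 without overlap, at 2.54 to 6.44 TPM against 0.96 to 1.57 TPM, as were 3.18% of all tested genes. It did not pass limma's adjusted threshold, and Pecam1 and Tek had lower fitted values in PGE2, with overlap. Pericyte, smooth muscle and glial markers (2 of 9 tested, Pdgfrb listed at 0 throughout) summed to 13.2 to 18.6 TPM in PGE2 and 9.78 to 20.1 TPM in Vehicle. Fibro-adipogenic markers (2 of 7 tested) summed to 37.5 to 45.9 TPM in PGE2 and 18.7 to 31.6 TPM in Vehicle. These sums did not overlap, yet the groups overlapped for each of the 2 tested markers. Col3a1 read 24.9 to 36.45 TPM in PGE2 against 15.3 to 28.1 TPM in Vehicle. Ly6a read 0, 13.55 and 0 TPM in PGE2 against 2.22, 3.38 and 7.92 TPM in Vehicle. Col1a1, not tested, read 14.4 TPM in PGE2 3 and 0 to 0.44 TPM in the other libraries. The part of these markers in the values above was not tested. In such bulk samples, fewer cells of a type and less RNA per cell cannot be told apart.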

How the data were processed

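The 6 libraries were made with a Qiagen micro RNA kit, NuGEN Ovation amplification and an Illumina protocol, per the labels. STAR, RSEM and mm10 are named in the submitters' processing notes, and no annotation is named there. The deposited values are TPM, a unit inferred from RSEM and from library sums of 992357 to 995645. From them, log2(TPM + 1) was fitted with limma 3.58.1 in R 4.3.3 (mean trend, not robust) over genes reaching 1 TPM in 3 or more libraries, two-sided, with Benjamini-Hochberg adjustment at 0.05. Shares and ratios between genes (5 measures, unadjusted) were tested by exact permutation of the libraries. The fit was checked on simulated data that gave each gene the same SD in both groups. In the real data the log2 SD was larger in PGE2 for 69.5% of all tested genes, so that check does not cover unequal spread. No 2 libraries held identical values.

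The members and the 11 gene lists (145 genes, all matched by symbol) were chosen with earlier results of these data known. The text names all members, the 3 nearest profiles of Ccnd1, Cdk4 and Myc and, per list, the most abundant gene and the 3 of smallest p among those averaging at least 5 TPM. One gene that this rule names is not reported here. Positions are from GENCODE M21 (42782 of 43283 identifiers found) and promoters from RefSeq, GRCm38.p6, the build called mm10. Copies were sought with BLAST 2.17.0, and Python 3.11.15 made tables and figures. Alternatives covered pseudocount, filter, scaling, variance prior, library weights, replicate block and each library left out.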

Additional observations from a re-analysis of the deposited data

How the results depend on the processing

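Under the 17 alternatives, 0 of the 9 members passed limma's adjusted threshold, and their log2 changes kept their direction in 143 of 152 refits (Mycn was not tested at a filter of 5 TPM), with a smallest adjusted p of 0.648. Ccnd3 (0.22 to 0.69), Cdk2 (-0.82 to -0.21) and Cdk6 (-0.70 to -0.21) kept theirs in all 17. Mycn turned to 0.29 with library weights. The other turns came from leaving out 1 library, where the ranges were -0.30 to 0.038 for Ccnd1, -0.28 to 0.19 for Ccnd2, -0.13 to 0.28 for Cdk4, -0.55 to 0.11 for Myc, -0.51 to 0.25 for Mycn and -0.34 to 0.14 for Max. The same ranges were -2.94 to 0.44 percentage points for the Myc share, -0.69 to 0.44 for the log2 ratio of Myc to Max and 0.15 to 1.13 for that of D cyclins to CDK inhibitors. Over all genes, 0 passed, against 1 with a robust prior, 4 without a trend and 0 to 1 with a library left out (1 each without Vehicle 1, PGE2 1, PGE2 2 or PGE2 3). At an unadjusted p under 0.05 there were 464, against 257 with a filter of 5 TPM, which tests fewer genes, and 272 to 929 with a library left out (280 without Vehicle 2, 272 without Vehicle 3, 929 without PGE2 1, 716 without PGE2 3); the cause was not tested. Same-numbered libraries did not deviate together (r of -0.05, -0.01 and 0.09 over 8370 genes), and not every library correlated best with its own number. The replicate block gave 482 genes in place of 464, 0 of 9 members called and the same differences of shares and ratios. Counts of lower genes per list with a library left out were added after seeing the data. That of E2F target genes moved from 16 of 18 to between 9 and 17, and that of members from 7 of 9 to between 4 and 7. Scalings moved the median of all genes from -0.07 to between -0.09 and -0.02. Count tests were not run, since TPM keeps no counts, and depth limits could not be computed.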

Other observations

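Odc1, a MYC target gene, has near-identical copies in the table, and those with the highest values were also higher in PGE2; they were looked at after their values were seen. The processed pseudogene Gm17709 (97.8% identity over 937 aligned bases) read 166, 51.0 and 34.0 TPM in PGE2 1 to 3 and 10.2, 20.4 and 11.3 TPM in Vehicle 1 to 3. The processed pseudogene Gm9115 (96.7% over 1349 bases) read 33.4, 43.1 and 28.2 TPM in PGE2 and 3.19, 7.91 and 10.2 TPM in Vehicle. Neither overlapped between the groups, where 3.18% of all tested genes were higher in PGE2 without overlap. Neither passed limma over all genes (adjusted p = 0.808 for Gm17709 and 0.471 for Gm9115). Of the other copies, AW146154 read 2.20, 1.77 and 2.52 TPM in PGE2 and 1.73, 1.58 and 1.64 TPM in Vehicle. Its groups did not overlap either, and it did not pass (limma unadjusted p = 0.639). Gm15645 read 1.39 TPM in PGE2 1 and 0 in the other libraries. Summed with 4 copies, Odc1 read 2946, 1699 and 1115 TPM in PGE2 and 1012, 1135 and 479 TPM in Vehicle, a log2 difference of 1.11 (two-sided exact permutation p = 0.2, smallest possible 0.1), with PGE2 3 below Vehicle 2. How reads were shared between Odc1 and these copies was not tested.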
